A study of Homo sapiens with 6 samples.

Results

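The genes described here are those of the mitosis, DNA replication and proliferation program that the nCounter Breast Cancer 360 panel measured in JIMT-1 cells. They were chosen by name, as the cyclin A, B and D, CDC, CDCA, CDK, KIF, CENP, AURK, BUB, MCM, E2F and ORC genes of the deposited table together with a list of 16 other proliferation genes, and 48 of the 758 genes of the table met this rule. JIMT-1 cells are an established line of HER2+ human breast cancer, derived from a tumor that did not respond to trastuzumab. The CTL group was treated with PBS for 24 h (3 samples) and the aCT1 group with 250 µM aCT1 for 24 h (3 samples). Both groups were cells of this same line grown in the same medium, so no other line or genotype was compared. aCT1 is a peptide modeled on the C-terminal tail of connexin 43, joined to an antennapedia sequence that carries it into cells. The labels do not say whether the 3 samples of a group were separate cultures, so p-values measure the spread between these samples, which may be technical. The comparison addressed whether the RNA of proliferation genes differed after 24 h of the peptide.

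A cell that commits to division passes from G1 into S phase when cyclin D and its kinases CDK4 and CDK6 release E2F factors, which switch on the genes of DNA synthesis. Origins of replication are marked by the ORC, CDC6 and MCM proteins before they are fired by CDC7, while TYMS and RRM2 supply nucleotides. Cyclins A and B with CDK1 drive the cell into mitosis, Aurora kinases and kinetochore proteins attach chromosomes to the spindle, and CDC20 with UBE2C directs the degradation that starts anaphase. In breast cancer many of these transcripts rise and fall together with the share of dividing cells. Of the 48 genes, 11 form the proliferation part of the PAM50 subtype classifier. In bulk RNA, fewer dividing cells and less of a transcript per dividing cell cannot be told apart.

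Many of these promoters share short elements. The CCAAT box is bound by NF-Y, the cell cycle homology region by the MuvB core of repressor and activator complexes of mitotic genes, and the E2F site by E2F factors. In RefSeq windows of GRCh38.p14 that run from 250 bases before to 50 bases after a gene's start, the letters CCAAT, the letters TTTGAA or TTCGAA for the cell cycle homology region, and the letters TTTGGCGC, TTTCCCGC, TTTCGCGC or TTTGCCGC for the E2F site were searched on both strands. A window was found for 41 of the 48 genes, and these 41 genes had 56 windows because some have several starts. A CCAAT box was in 57.1% of these windows, against 35.2% of the 806 windows of other genes of the table and 34.6% of all 35116 windows. A cell cycle homology region was in 35.7%, against 16.3% and 16.4%. An E2F site was in 17.9%, against 2.36% and 3.31%. The elements were spread unevenly over the phases. The cell cycle homology region was in 0 of 15 windows of the genes of G1 entry, origin licensing and nucleotide supply and in 18 of 39 windows of the genes of mitotic entry, kinetochore, anaphase and cytokinesis. The E2F site was in 7 of the former 15 and in 3 of the latter 39. Windows of 1 gene can overlap and hold the same site, as those of CDK1 do. Counted by gene, the cell cycle homology region was in 0 of 12 and 16 of 27 genes, and the E2F site in 7 of 12 and 2 of 27. A match describes letters in a window and does not show that a factor bound there, and sites of both strands or of different elements may overlap.

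Stretches of the 120 bases before the start are shown because they carry the different combinations and belong to genes whose values are given next. Capitals mark the matched letters. E2F1 (chr20:33686386-33686505, minus strand) has CCAAT boxes and E2F sites, MKI67 (chr10:128126424-128126543, minus strand), CDC20 (chr1:43358861-43358980, plus strand) and KIF23 (chr15:69414229-69414348, plus strand) have CCAAT boxes beside a cell cycle homology region, KIFC1 (chr6:33391703-33391822, plus strand) has CCAAT boxes alone in this stretch, and KIF2C (chr1:44739717-44739836, plus strand) has none of the searched letters. In MKI67 a cell cycle homology region and a CCAAT box overlap.
E2F1: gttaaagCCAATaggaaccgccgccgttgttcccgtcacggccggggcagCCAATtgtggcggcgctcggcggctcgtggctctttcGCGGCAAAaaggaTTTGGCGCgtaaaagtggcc
MKI67: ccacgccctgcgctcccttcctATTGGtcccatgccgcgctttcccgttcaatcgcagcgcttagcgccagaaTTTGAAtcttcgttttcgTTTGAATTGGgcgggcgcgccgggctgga
CDC20: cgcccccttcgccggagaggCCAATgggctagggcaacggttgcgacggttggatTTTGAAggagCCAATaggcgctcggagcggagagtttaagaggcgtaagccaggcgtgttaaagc
KIF23: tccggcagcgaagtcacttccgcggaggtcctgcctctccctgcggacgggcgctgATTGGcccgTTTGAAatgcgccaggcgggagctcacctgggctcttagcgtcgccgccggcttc
KIFC1: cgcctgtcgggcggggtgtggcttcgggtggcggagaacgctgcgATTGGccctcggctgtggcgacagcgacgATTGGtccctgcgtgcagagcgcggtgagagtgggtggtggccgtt
KIF2C: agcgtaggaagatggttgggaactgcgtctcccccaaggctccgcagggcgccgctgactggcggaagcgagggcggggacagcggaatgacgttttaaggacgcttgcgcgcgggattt

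The nCounter assay counts barcoded probes bound to RNA. The deposited normalized counts of a sample were whole multiples of 1 factor, between 0.979 and 1.02, and divided by it they summed to between 1437572 and 1494919 counts per sample over the table. The panel's markers of the line were present, with ERBB2, GRB7, KRT7 and CDH1 between 5605 and 11186 normalized counts in the 6 samples. The 9 measured markers of leukocytes, endothelium and fibroblasts lay between 1.99 and 76.3, none at 0, and their summed level ran from 250.2 to 269 in CTL and from 229.9 to 251 in aCT1. Every probe has its own efficiency, so levels were compared between samples and not between genes.

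Of the 48 genes, 45 had a mean of at least 50 normalized counts, from 106 for E2F5 to 53794 for CDK4. The other 3 were CCND2, with a mean of 15.4, CCNA1 with 23.3 and CDCA8 with 31.5. These 3 lay within the range of the 299 genes that the study's statistics leave out, whose mean was at most 37.3. All 48 were fitted, with each gene of the table, on the log2 scale with limma and a trend of variance with level, comparing aCT1 with CTL, and the two-sided p-values were adjusted over all 758 genes.

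CTL replicate 3 stood low in these genes. It held the lowest value of the 6 samples in 23 of the 45 genes with a mean of at least 50, and the lowest of the 3 CTL values in 33 of the 45, where it was the lowest CTL value in 43.6% of the 388 other genes at that level. Its median deviation from the 6-sample mean was -0.038 on the log2 scale over the 45 genes and -0.015 over the 388 others. The other 5 samples had median deviations between -0.0042 and 0.021 over the 45 genes. The highest was that of aCT1 replicate 3, which held the highest value of the 6 in 14 genes. Counts over the 48 genes and over their role groups are therefore given with and without CTL replicate 3.

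**Figure D1:**
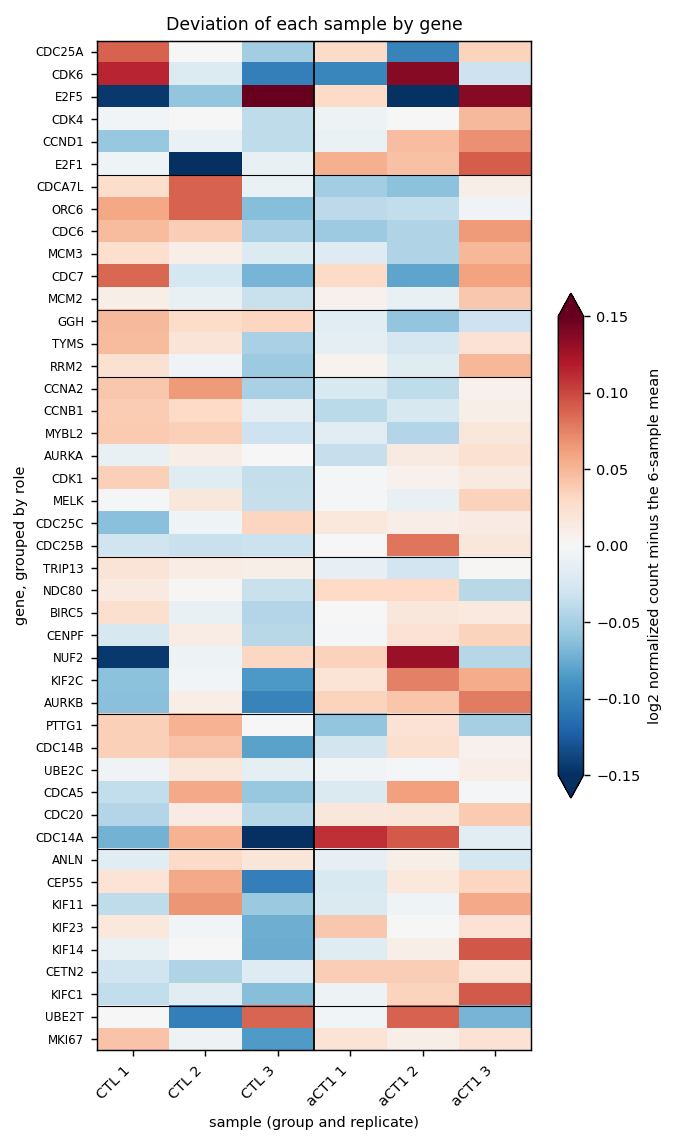
Log2 normalized count of each sample minus the 6-sample mean of the gene (color, from -0.15 to 0.15) for the 45 proliferation genes with a mean of at least 50 (rows, grouped by role) in the 6 samples (columns). CTL replicate 3 is the lowest of the 6 samples in 23 rows, and KIF2C, AURKB, CETN2 and KIFC1 are lower in all CTL columns than in all aCT1 columns.

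After adjustment, 0 of the 48 genes passed 0.05 in limma, as did 0 of the 758 genes (0%), and the smallest adjusted p among the 48 was 0.304. At an unadjusted p under 0.05, 6 of the 48 (12.5%) were higher in aCT1, where 6.46% of all genes were, and 1 (2.08%) was lower, where 2.9% of all genes were (49 higher and 22 lower of 758). Among genes with a mean of at least 50, which include all 7, these were 13.3% of the 45 against 9.70% of all such genes for the higher direction. The 7 genes were KIF2C, AURKB, KIFC1, CCND1, CETN2 and E2F1 on the higher side and GGH on the lower side. Their number rested on the variance model and the scaling. Without the trend 0 of the 48 had an unadjusted p under 0.05 in limma, where 34 of all genes were higher and 14 lower. In a linear model per gene without moderation 3 of the 48 were higher and 1 lower, against 46 and 17 of all genes. With each sample centred on its median the counts were 6 higher and 3 lower, against 49 and 32 of all genes, and with quantile normalization 5 higher and 6 lower, where all genes counted 41 higher and 42 lower.

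Without CTL replicate 3 the median log2 fold change of the 48 genes was 0.00061, and 11 of the 48 changed sign. At an unadjusted p under 0.05 in limma, 4 were then higher (E2F1, KIF2C, CETN2 and CCND1) and 5 lower (ORC6, CDCA7L, GGH, PTTG1 and CCNA2). These were 8.33% and 10.4% of the 48, where 7.26% of all genes were higher and 4.09% lower in that fit. KIF2C had a log2 fold change of 0.083 without that sample, AURKB 0.077 (limma unadjusted p = 0.0506) and KIFC1 0.066 (limma unadjusted p = 0.0558). On the lower side 0 genes had a p under 0.05 when CTL replicate 1 was left out, and 2 when aCT1 replicate 3 was, where 21 of all genes were lower in each fit. With 1 of the 6 samples left out in turn, the unadjusted p stayed under 0.05 in all 6 fits for KIF2C, in 5 for AURKB, 4 for GGH and KIFC1, 3 for CCND1 and E2F1, and 2 for CETN2.

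Among the 45 genes with a mean of at least 50, the log2 fold change ran from -0.072 for GGH to 0.13 for E2F1. The median log2 fold change of the 48 genes was 0.017, against 0.018 over all 758 genes. The log2 fold change was above 0 for 35 of the 48 genes and for 446 of all 758. Among genes with a mean of at least 50 it was above 0 for 32 of the 45 and 267 of all 433. Without CTL replicate 3 it was above 0 for 24 of the 48, with a median of 0.00061 against 0.024 over all genes. The median size of the log2 fold change, regardless of sign, was 0.026 among the 45 genes with a mean of at least 50 and 0.046 among all 433 such genes. The 95% interval of the log2 fold change lay wholly within a 1.2-fold change in either direction (0.26 on the log2 scale) for 44 of the 48 genes (91.7%), where 45.1% of all genes had such an interval. Few counts widen the interval, and among genes with a mean of at least 50 the shares were 97.8% of the 45 and 79% of all 433. This cut does not match the genes for level. The median of the 48 genes in a sample lay between 3841 and 4027 normalized counts, far above the cut. The differences in these shares and in the median size were therefore not separated from level. The 1 exception with a mean of at least 50 was E2F5, with a log2 fold change of 0.012 and an interval from -0.27 to 0.30. The 3 genes with few counts had intervals that reached beyond a 1.2-fold change on both sides, so a difference of that size was not detectable for them at this depth.

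**Figure D2:**
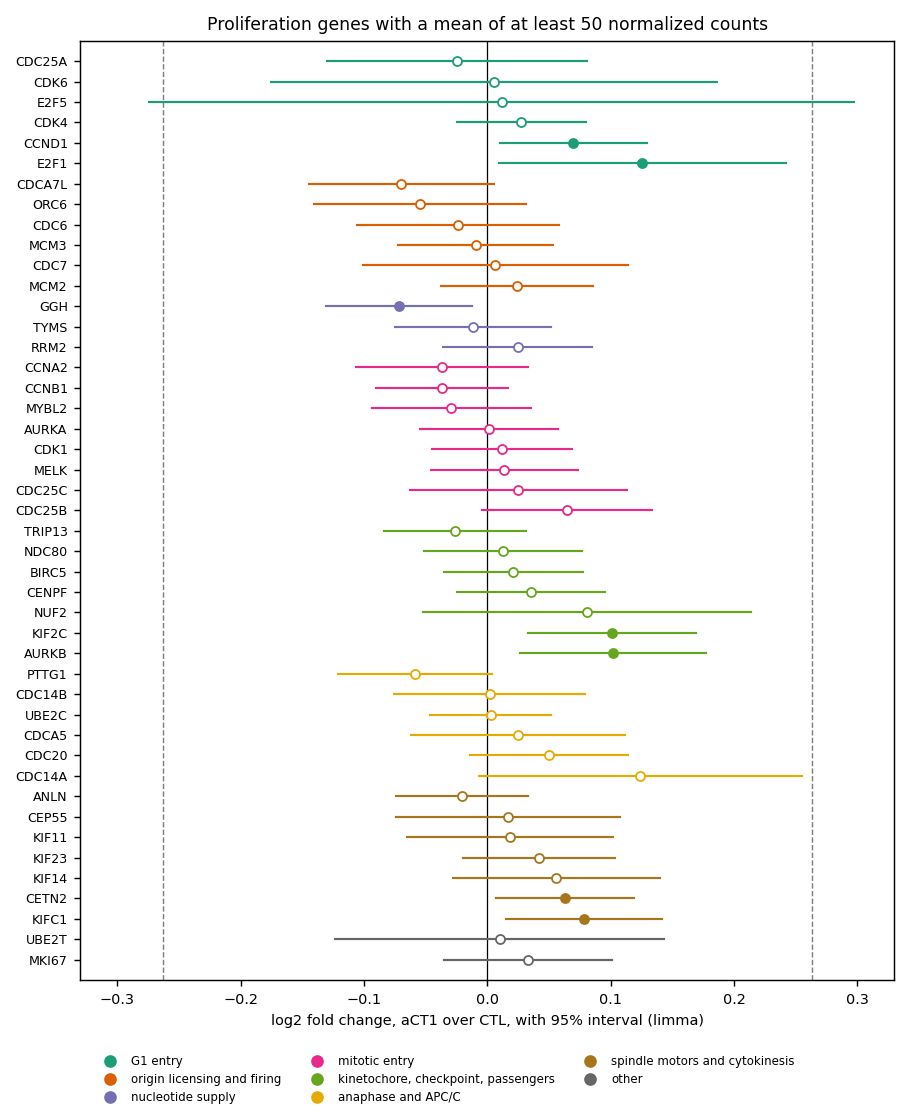
Log2 fold change of aCT1 over CTL (x axis) for the 45 proliferation genes with a mean of at least 50 normalized counts, grouped and colored by role, with 95% intervals from limma (n = 3 per group). Filled points are the 7 genes with an unadjusted p under 0.05, dashed lines mark a 1.2-fold change, and the E2F5 interval alone crosses them.

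**Figure D3:**
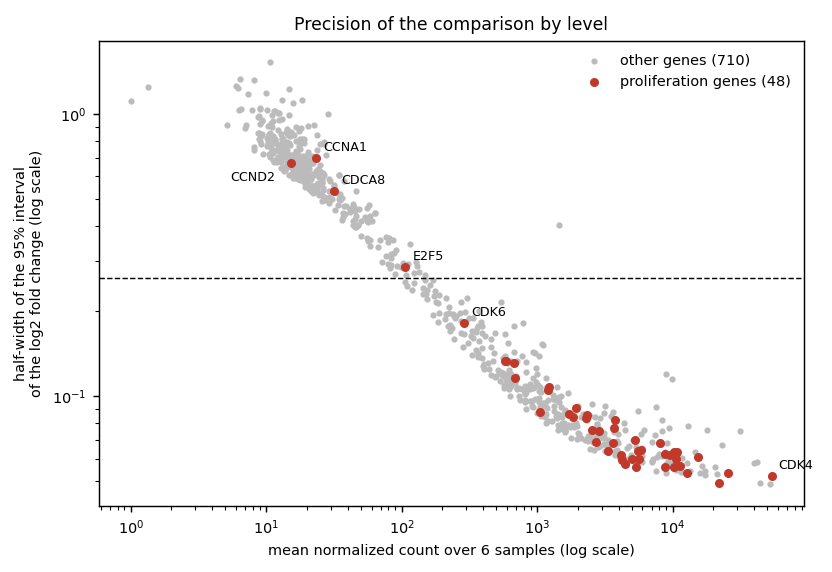
Half-width of the 95% interval of the log2 fold change (y axis, log scale) against mean normalized count over the 6 samples (x axis, log scale), with the 48 proliferation genes in red, the other 710 genes in grey and the dashed line at a 1.2-fold change. The half-width narrows with the level, and among the proliferation genes CCND2, CCNA1, CDCA8 and E2F5 lie above the line.

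At the kinetochore and among the chromosomal passengers, KIF2C and AURKB had an unadjusted limma p under 0.05. KIF2C encodes a kinesin that depolymerizes microtubule ends at centromeres to correct wrong attachments. KIF2C had 3469.9, 3611 and 3411 in the CTL samples and 3673, 3817 and 3763 in the aCT1 samples, in normalized counts. All 3 aCT1 values were above all 3 CTL values, and the lowest aCT1 value, that of replicate 1, was close to the highest CTL value, that of replicate 2. Its log2 fold change was 0.10 (95% interval 0.033 to 0.17), a level 7.27% higher (limma unadjusted p = 0.00683, adjusted p = 0.304). AURKB encodes Aurora B, the kinase of the passenger complex that releases such attachments. AURKB had 2441, 2567 and 2379.6 in the CTL samples and 2610.1, 2624 and 2691 in the aCT1 samples. The groups did not overlap, and CTL replicate 3 was the lowest of the 6. The log2 fold change was 0.10 (95% interval 0.026 to 0.18) (limma unadjusted p = 0.0121, adjusted p = 0.313).

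The unadjusted limma p was above 0.05 for the other genes of this group. BIRC5, which encodes survivin of the same passenger complex, had 10199 ± 239 normalized counts in the CTL group against 10347 ± 70.7 in the aCT1 group (mean ± SD, n = 3), with a log2 fold change of 0.021 (95% interval -0.035 to 0.077). CENPF, an outer kinetochore protein, had a log2 fold change of 0.035, and NDC80 and NUF2, partners in the complex that grips microtubules, had 0.013 and 0.081. TRIP13, an ATPase that resets the spindle checkpoint, had 4551, 4526 and 4518 in the CTL samples and 4452, 4403 and 4498 in the aCT1 samples. All its aCT1 values were below its CTL values, but the gap was small, with a log2 fold change of -0.026 (95% interval -0.084 to 0.032) (limma unadjusted p = 0.349, adjusted p = 0.862). CDCA8, another passenger subunit, had a log2 fold change of 0.15 from about 31.5 normalized counts, with an interval from -0.38 to 0.68. Of the 8 genes of this group, 7 had a log2 fold change above 0, where 446 of all 758 genes did. An unadjusted limma p under 0.05 on the higher side was found for 2 of the 8 and for 6.46% of all genes. The median was 0.058 over all 8 and 0.035 over the 7 with a mean of at least 50. Without CTL replicate 3, 6 of the 8 were above 0 and the median was 0.051. In that fit 1 had an unadjusted limma p under 0.05, on the higher side, where 7.26% of all genes did. Without CTL replicate 1 the median of the 8 was 0.031.

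**Figure D4:**
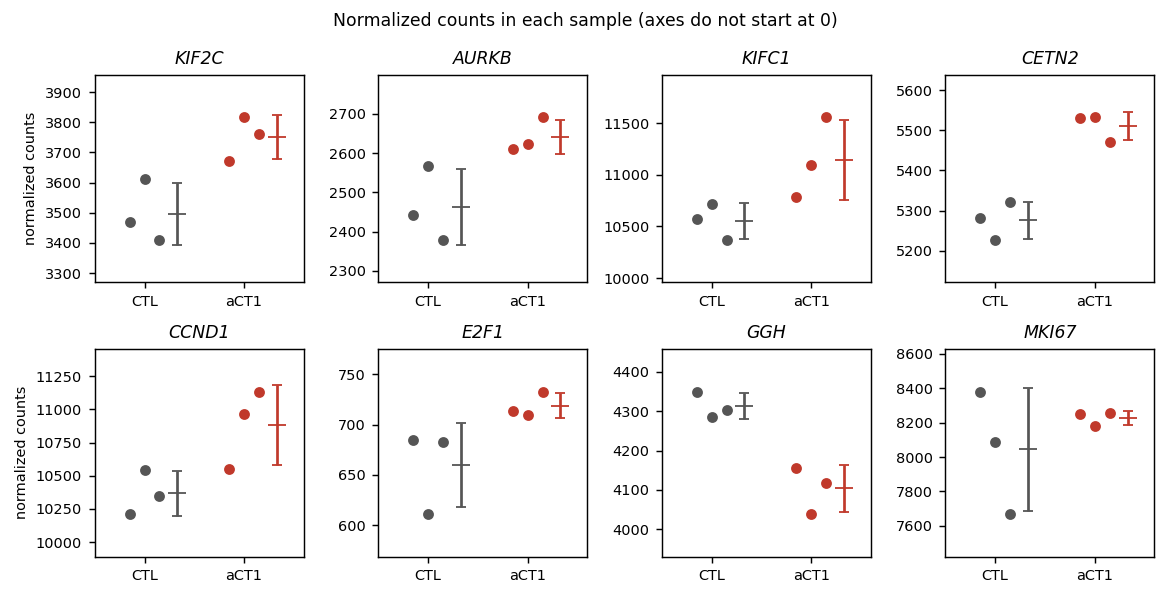
Normalized counts (y axes, not starting at 0) of the 7 genes with an unadjusted p under 0.05 and of MKI67 in the 3 CTL (grey) and 3 aCT1 (red) samples, in replicate order from left to right, with the mean and SD beside them (n = 3). The groups do not overlap in the first 7 panels and overlap in MKI67, whose CTL samples spread from 7670 to 8379.

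Among spindle motors and cytokinesis genes, KIFC1 and CETN2 had an unadjusted p under 0.05 in limma. KIFC1 encodes a minus-end kinesin that bundles spindle poles and clusters extra centrosomes. KIFC1 had 10572, 10713 and 10372 in the CTL samples and 10781, 11097 and 11558 in the aCT1 samples. The aCT1 values were all above the CTL values and spread more, with replicate 3 the highest. The log2 fold change was 0.078 (95% interval 0.015 to 0.14) (limma unadjusted p = 0.0188, adjusted p = 0.334). It was 0.052 without aCT1 replicate 3 and 0.040 with quantile normalization, in both with a limma p above 0.05. CETN2 encodes centrin-2, a calcium-binding protein of centrioles that also takes part in nucleotide excision repair. CETN2 had 5280.3, 5227 and 5320.1 in the CTL samples and 5531, 5532 and 5471 in the aCT1 samples. Its groups were apart by more than either group's range, with a log2 fold change of 0.063 (95% interval 0.0070 to 0.12) (limma unadjusted p = 0.0302, adjusted p = 0.405). That p stayed under 0.05 without CTL replicate 3 or aCT1 replicate 3 and rose above it without any of the other 4 samples.

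The remaining motors had log2 fold changes of 0.042 for KIF23, a midzone kinesin of cytokinesis, 0.056 for KIF14, which works with it at the midbody, and 0.018 for KIF11, the plus-end motor that separates spindle poles. ANLN, the anillin of the cleavage furrow, had -0.020 and CEP55, which recruits the abscission machinery, 0.017. The intervals of these 5 genes all included 0. Of the 7 genes of this group, 6 were above 0, with a median of 0.042, where 446 of all 758 genes were above 0. On the higher side 2 of the 7 had an unadjusted limma p under 0.05. So did 6.46% of all genes and 9.70% of those with a mean of at least 50. With any 1 sample left out, 1 of the 7 had such a p, where 3.96% to 7.26% of all genes did. With quantile normalization 1 of the 7 had one, where 5.41% of all genes did. Without CTL replicate 3, 4 of the 7 were above 0 and the median was 0.016, and it was 0.023 without aCT1 replicate 3 and 0.0092 with quantile normalization.

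On the G1 side, CCND1 and E2F1 had an unadjusted limma p under 0.05. CCND1 encodes cyclin D1, the activator of CDK4 and CDK6. CCND1 had 10212, 10544 and 10345 in the CTL samples and 10549, 10964 and 11134 in the aCT1 samples. The lowest aCT1 value and the highest CTL value were nearly equal, and the other aCT1 values lay well above. The log2 fold change was 0.070 (95% interval 0.010 to 0.13) (limma unadjusted p = 0.0252, adjusted p = 0.371). The p rose above 0.05 without CTL replicate 1, aCT1 replicate 2 or aCT1 replicate 3, and quantile normalization gave a log2 fold change of 0.038. E2F1 encodes a transcription factor that the retinoblastoma protein restrains, and its own promoter stretch shown above holds E2F sites. E2F1 had 685, 611 and 683 in the CTL samples and 714, 709 and 733 in the aCT1 samples. CTL replicate 2 was far below the other CTL samples, which sat close to the aCT1 samples. The log2 fold change was 0.13 (95% interval 0.0095 to 0.24), a level 9.10% higher (limma unadjusted p = 0.0360, adjusted p = 0.439). It was 0.072 without CTL replicate 2 and 0.064 with quantile normalization, with a limma p above 0.05 in both, as it was without aCT1 replicate 1 or aCT1 replicate 3.

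The kinases that cyclin D1 activates had intervals that included 0. CDK4 had 53279 ± 774 normalized counts in the CTL group against 54310.1 ± 1166 in the aCT1 group (mean ± SD, n = 3), a log2 fold change of 0.028 (95% interval -0.025 to 0.080), and CDK6 had 0.0053 (95% interval -0.18 to 0.19). CDC25A, the phosphatase that activates CDK2 at the G1 to S transition, had -0.024 (95% interval -0.13 to 0.081). CCND2, a second D cyclin, was at 14.9 ± 3.73 normalized counts in CTL and 15.8 ± 2.46 in aCT1 (SD, n = 3), where counting error alone gave its log2 fold change a standard error of 0.30. Of the 7 genes of G1 entry, 6 were above 0, with a median of 0.028. An unadjusted limma p under 0.05 was found for 2, both higher, where 6.46% of all genes were. Without CTL replicate 3, 5 of the 7 were above 0, the same 2 had such a p, and the median was 0.068. In that fit 7.26% of all genes were higher.

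GGH was the one gene with an unadjusted p under 0.05 on the lower side. It encodes gamma-glutamyl hydrolase, which shortens folate polyglutamates in lysosomes. GGH had 4349.7, 4286 and 4302 in the CTL samples and 4156, 4039 and 4117 in the aCT1 samples. Every aCT1 value was below every CTL value, by more than the range of either group. Its log2 fold change was -0.072 (95% interval -0.13 to -0.012), a level 4.85% lower (limma unadjusted p = 0.0218, adjusted p = 0.341), and the p rose above 0.05 without CTL replicate 1 or aCT1 replicate 2. The other genes of nucleotide supply overlapped between groups. TYMS, the thymidylate synthase that uses folate, had 10519, 10318 and 9847 in the CTL samples and 10081, 10006 and 10340.3 in the aCT1 samples, a log2 fold change of -0.012 (95% interval -0.075 to 0.051). RRM2, the regulated subunit of ribonucleotide reductase, had 15226 ± 411 normalized counts in the CTL group against 15486 ± 375 in the aCT1 group (mean ± SD, n = 3), a log2 fold change of 0.024 (95% interval -0.036 to 0.085). Of the 3 genes of nucleotide supply 1 was above 0 and 2 below, with a median of -0.012. Without CTL replicate 3 these counts were the same and the median was -0.039. GGH alone had an unadjusted limma p under 0.05 in both fits, where 2.9% and 4.09% of all genes were lower at such a p.

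Origin licensing and firing genes lay on the lower side in 4 of 6, where 312 of all 758 genes did. Their median was -0.017, and 0 of the 6 had an unadjusted p under 0.05 in limma. Without CTL replicate 3, 5 of the 6 were lower, the median was -0.041, and ORC6 and CDCA7L had an unadjusted limma p under 0.05. In that fit 4.09% of all genes were lower at such a p, and the median over all genes was 0.024. The median of the 6 genes ran from -0.049 without aCT1 replicate 3 to 0.0015 without aCT1 replicate 2, where it changed sign. MCM2 and MCM3, subunits of the replicative helicase, had 0.024 and -0.0096. ORC6, a subunit of the origin recognition complex, had 2431, 2483 and 2234 in the CTL samples and 2272, 2277 and 2326 in the aCT1 samples. CTL replicate 3 was the lowest of the 6 samples and the other CTL samples were the highest, so the groups overlapped through that 1 sample, with a log2 fold change of -0.055 (95% interval -0.14 to 0.031). CDC6, which loads the helicase, had -0.024, and CDC7, the kinase that fires origins, 0.0064. CDCA7L, a MYC-interacting nuclear protein placed with this group, had -0.070 (95% interval -0.14 to 0.0051).

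The genes of mitotic entry had 0 of 9 with an unadjusted p under 0.05 in limma and a median log2 fold change of 0.012. Above 0 were 6 of the 9, and 446 of all 758 genes. Without CTL replicate 3, 3 of the 9 were above 0 and the median was -0.0030. CCNA2 then had an unadjusted limma p under 0.05 on the lower side, where 4.09% of all genes did. The median was also below 0 without CTL replicate 1 (-0.0041) and without aCT1 replicate 2 (-0.0051). CCNB1, cyclin B1, had 26358, 26199 and 25439.5 in the CTL samples and 24968, 25253 and 25828 in the aCT1 samples. The highest aCT1 value, that of replicate 3, lay above the lowest CTL value, that of replicate 3, and the log2 fold change was -0.036 (95% interval -0.090 to 0.017). With quantile normalization CCNB1 had a log2 fold change of -0.033 and an adjusted limma p of 0.0177. In that fit 6 of all 758 genes had an adjusted limma p under 0.05. CCNB1 ranked 7 in level in each CTL sample and 8 in each aCT1 sample, and quantile normalization gives samples with the same rank the same value, which leaves no spread within a group. Cyclin A2 (CCNA2) had -0.037 (95% interval -0.11 to 0.033), and CDK1, the kinase both cyclins activate, had 11240.4 ± 292 normalized counts in the CTL group against 11332 ± 61.9 in the aCT1 group (mean ± SD, n = 3) and a log2 fold change of 0.012. Of the phosphatases that remove the inhibitory marks from CDK1, CDC25B had 2676, 2670.0 and 2673 in the CTL samples and 2731, 2889.8 and 2766 in the aCT1 samples. The CTL values of CDC25B were nearly equal and lay below all 3 aCT1 values, with a log2 fold change of 0.064 (95% interval -0.0045 to 0.13) (limma unadjusted p = 0.0645, adjusted p = 0.542). CDC25C had a log2 fold change of 0.025. AURKA, which encodes the centrosomal Aurora A, had a log2 fold change of 0.0012, MELK, a kinase of proliferating cells, 0.014, and MYBL2, the B-Myb factor of the mitotic activator complex, -0.029. CCNA1, the germline cyclin A, was at 23.3 normalized counts on average.

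In anaphase, CDC20, the activator of the anaphase-promoting complex, had 3254, 3384 and 3258 in the CTL samples and 3396, 3398 and 3447 in the aCT1 samples. All aCT1 values were above all CTL values by a narrow margin, with a log2 fold change of 0.050 (95% interval -0.014 to 0.11) (limma unadjusted p = 0.118, adjusted p = 0.645). UBE2C, the conjugating enzyme of that complex, had 21971 ± 251 normalized counts in the CTL group against 22009 ± 109 in the aCT1 group (mean ± SD, n = 3), a log2 fold change of 0.0025 (95% interval -0.047 to 0.052), the narrowest interval of the 48 genes. PTTG1, securin, which the complex destroys, had 9087, 9191 and 8869 in the CTL samples and 8509.9, 8997 and 8565 in the aCT1 samples, with 2 aCT1 samples below the CTL samples and 1 among them. Its log2 fold change was -0.059 (95% interval -0.12 to 0.0037) (limma unadjusted p = 0.0632, adjusted p = 0.542). CDC14A and CDC14B, phosphatases placed with this group, had 0.12 (95% interval -0.0067 to 0.25) and 0.0018 (95% interval -0.075 to 0.079), and CDCA5, sororin of sister cohesion, had 0.025. Of the 6 genes of this group, 5 were above 0, with a median of 0.014, and 0 had an unadjusted limma p under 0.05. Without CTL replicate 3, 3 of the 6 were above 0 and the median was -0.00088. PTTG1 alone then had an unadjusted limma p under 0.05, on the lower side, where 4.09% of all genes did.

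MKI67, the Ki-67 antigen used to grade proliferation, had 8379, 8089.7 and 7669.6 in the CTL samples and 8248, 8180.1 and 8254 in the aCT1 samples. The aCT1 samples lay close together inside the range of the CTL samples, with a log2 fold change of 0.033 (95% interval -0.035 to 0.10). UBE2T, a conjugating enzyme of the Fanconi pathway, had 0.010. All 11 genes of the PAM50 proliferation score (BIRC5, CCNB1, CDC20, NUF2, CEP55, NDC80, MKI67, PTTG1, RRM2, TYMS and UBE2C) were in the table, and 0 of them had an unadjusted p under 0.05 in limma. Of all genes 6.46% were higher and 2.9% lower at such a p. Of the 11, 8 had a log2 fold change above 0 and 3 below 0, where 267 of all 433 genes with a mean of at least 50 were above 0. The median was 0.017, and for all 11 the 95% interval lay within a 1.2-fold change. The tally turned to 4 above 0 and 7 below 0 when CTL replicate 3 was left out, with a median of -0.0013. PTTG1 was then lower at an unadjusted limma p under 0.05, where 4.09% of all genes were. The median was 0.0056 without aCT1 replicate 3 and 0.029 without CTL replicate 1. With quantile normalization CCNB1, PTTG1 and TYMS, 3 of the 11, were lower at such a p, where 5.54% of all genes were. In that fit 6 of the 11 were above 0. With median centring and without aCT1 replicate 2, 1 of the 11 was lower at such a p, where 4.22% and 3.69% of all genes were.

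Without reference to a variance model, all 3 aCT1 values lay above all 3 CTL values in 8 of the 48 genes (16.7%), where 9.37% of all genes and 12.9% of all genes with a mean of at least 50 did, and below in 2 (4.17%), where 4.88% did. An exact permutation test of 3 against 3 samples cannot give a two-sided p below 0.1 for any of them. Beyond the 7 named above, these were CDC25B and CDC20 on the higher side and TRIP13 on the lower side. With quantile normalization 3 of the 48 were higher and 3 lower, against 47 and 51 of all genes. With 1 sample left out, non-overlap needs fewer samples to agree, and it counted 13 higher genes without CTL replicate 2 (110 over all genes, from 71), 9 lower genes without CTL replicate 3 (85 over all genes, from 37), and 4 lower genes without aCT1 replicate 3 (58 over all genes).

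Ratios of related genes within a sample do not depend on the factor of that sample. The log2 ratio of AURKB to AURKA was -1.84 ± 0.049 in CTL and -1.74 ± 0.020 in aCT1 (SD, n = 3), a difference of 0.10 with no overlap between groups (two-sided exact permutation p = 0.1, adjusted p = 0.4 over 8 pairs). For MCM2 over MCM3 the difference was 0.034, also without overlap (exact permutation p = 0.1, adjusted p = 0.4). CDC14A over CDC14B differed by 0.12 (exact permutation p = 0.2) and CDC25B over CDC25A by 0.089 (exact permutation p = 0.4), with overlap. The ratios of CDC25C to CDC25A, CDC25B to CDC25C, CDK4 to CDK6 and E2F1 to E2F5 differed by 0.050, 0.039, 0.022 and 0.11 with exact permutation p-values between 0.4 and 0.7, and the adjusted p of these 6 pairs lay between 0.533 and 0.7. With 3 samples a group no pair could go below 0.1, and the pairs were chosen after the values had been seen.

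Among cell cycle genes outside the naming rule, 32 of a list of 62 were in the table. Of these, 22 had a log2 fold change above 0 and 10 below 0, where 446 of all 758 genes were above 0. An unadjusted p under 0.05 in limma was found for 6 (18.8%), all on the higher side. On that side 6.46% of all genes and 9.70% of those with a mean of at least 50 had such a p. Of the 32, 0 had an adjusted limma p under 0.05 (smallest 0.189). The S phase clamp PCNA had a log2 fold change of 0.083, and SKP2 and CKS1B, the ligase subunits that mark the inhibitor p27 for degradation, had 0.077 and 0.063. The other 3, named after their values were seen, were CDKN2B and CDKN1B, which encode the CDK inhibitors p15 and p27, with 0.17 and 0.13, and WEE1, the kinase that holds CDK1 inactive, with 0.10. FOXM1, a mitotic transcription factor, had a log2 fold change of 0.057, TOP2A, the topoisomerase of dividing cells, 0.0032, CCNE1, cyclin E1, 0.012, and CDKN1A, the p21 inhibitor, 0.0039. The median of the 32 genes was 0.013, against 0.018 over all genes. Of the 32, 15 were above 0 and 17 below 0 when CTL replicate 3 was left out, and the median was -0.0027. At an unadjusted limma p under 0.05, 6 (18.8%) were then higher and 1 (3.1%) lower, where 7.26% and 4.09% of all genes were.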

How the data were processed

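RNA of 3 CTL and 3 aCT1 samples of JIMT-1 cells was counted with the nCounter Breast Cancer 360 panel. Per the study's methods, nSolver scaled each sample on housekeeping genes. The authors deposited 758 genes on a linear scale, as a normalized signal, and on a log2 scale. A background subtraction is not given in the sources used here. Every linear value was a whole multiple of 1 step per sample, to within 3e-05. The deposited log2 values were fitted over all 758 genes with limma 3.58.1 in R 4.3.3 (variance trend, Benjamini-Hochberg adjustment, threshold 0.05). The same fit was also run on simulated data whose spread was based on the real samples. Promoter windows came from RefSeq (GRCh38.p14).

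Named genes were role representatives fixed by list, members with an unadjusted p under 0.05, and the 3 highest and 3 lowest log2 fold changes at a mean of at least 50. CDC14B, CDCA5, E2F5 and UBE2T were named after their values were seen. The members, lists and the variance trend were chosen with earlier results of these data known. Alternatives were the variance model, pseudocounts of 1 and 10, a minimum mean of 50, the 459 genes of the study's statistics, median centring, quantile normalization, the replicate number as a block, and each sample left out. Count models were not run.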

Additional observations from a re-analysis of the deposited data

How the results depend on the processing

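The number of all genes with an adjusted limma p under 0.05 was 6 with quantile normalization and 0 or 1 in each other alternative. Among the 48 genes it was 1 (CCNB1) with quantile normalization and 0 in each other alternative. At an unadjusted p under 0.05, without the variance trend 0 were higher and 0 lower, in the linear model per gene 3 were higher, with median centring 3 were lower, and with quantile normalization 6 were lower, while non-overlapping higher genes came to 3. The cause was not tested. With 1 of the 6 samples left out in turn, 4 to 5 genes were higher and 0 to 5 lower at an unadjusted p under 0.05, with 0 lower without CTL replicate 1, 2 without aCT1 replicate 3 and 5 without CTL replicate 3. Over all genes 30 to 55 were higher and 17 to 31 lower at that p in these fits. Non-overlapping genes numbered 9 to 13 higher and 2 to 9 lower of the 48, against 97 to 138 and 58 to 85 of all genes. With all 6 samples 71 and 37 of all genes did not overlap. The median log2 fold change of the 48 lay between 0.00061 and 0.025, and 42 to 43 genes had an interval within a 1.2-fold change. Over the other alternatives this last count lay between 40 and 44. None of the 7 genes with an unadjusted p under 0.05 changed direction, and KIF2C kept that p in 14 of 15 alternatives, AURKB in 13 and GGH in 12. Over these alternatives the adjusted p of KIF2C lay between 0.158 and 0.716. The median log2 fold change of all genes was 0.018 as reported and 0.037 without aCT1 replicate 3, and quantile normalization shifted it by -0.018. No alternative moved this median by more than 0.1, but that bound is the size of the KIF2C log2 fold change. The share of higher genes among those of the table with an unadjusted p under 0.05 was 69.0% as reported, 60.5% with median centring and 49.4% with quantile normalization.

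With the replicate number as a block, 6 genes were higher and 1 lower at an unadjusted limma p under 0.05, against 47 and 23 of all genes. The counts of 6 and 1 were as without the block, with CDC14A in place of CETN2, and the smallest adjusted limma p was 0.264. Deviations of same-numbered samples had correlations over 433 genes of 0.078, 0.19 and -0.23, so the numbers were not taken to pair the samples. The planned edgeR and DESeq2 fits were not run: the deposited values, although whole multiples of 1 factor per sample, were used as a normalized signal. Depth limits CCND2, CCNA1 and CDCA8, where counting error alone gives standard errors of 0.30, 0.24 and 0.21 on the log2 fold change.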
